A study of Mus musculus with 10 samples.

Results

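The genes described here are 10 acute-phase genes of the liver, taken by symbol from the 47702 genes of the deposited FPKM table. They are the orosomucoids Orm1, Orm2 and Orm3, the pentraxins Apcs and Crp, the haemoglobin and haem binders Hp and Hpx, the copper protein Cp, the siderophore binder Lcn2 and the metalloreductase Steap4. Each symbol matched 1 row, and all 10 passed the filter for testing, which asked for 0.5 FPKM or more on average. FPKM scales fragment counts by transcript length and library size, so levels can be set side by side between genes.

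The 2 groups were livers of female Etnppl KO mice, a whole-body knockout of the gene for ethanolamine-phosphate phospho-lyase, and livers of female Etnppl WT mice. Both ate chow for 20 weeks, and each had 5 libraries of poly-A RNA. The labels do not give the targeted exons, the strain or the ages, and do not say whether a library came from 1 animal, so the p-values refer to variation among the libraries, which may be technical. By the title of the series, the comparison concerned hepatic gene expression after loss of the enzyme.

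Acute-phase proteins are plasma proteins that hepatocytes make in larger or smaller amounts when tissue is injured or infected. Interleukin 6 acts on them through gp130 and STAT3, and interleukin 1 and tumour necrosis factor through NF-kappa-B and C/EBP factors, with glucocorticoids adding to the response. In mice serum amyloid P component, encoded by Apcs, is the main inducible pentraxin, whereas C-reactive protein, the classical human marker, responds weakly.

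Etnppl itself (chromosome 3, 130617448 to 130637521 on the plus strand) was at 26.43, 21.97, 18.88, 25.74 and 17.72 FPKM in KO 1 to KO 5, against 60.27, 69.73, 108.39, 47.24 and 43.32 FPKM in WT 1 to WT 5. Its average in KO came to 33.7% of WT (log2 difference -1.49, limma adjusted p = 0.00504). By exact permutation, two-sided, p was 0.0079, the lowest possible with 5 libraries against 5. Some transcript therefore remained in the KO libraries, and the genotypes did not overlap. Libraries had Spearman correlations across genes from 0.977 to 0.988 within genotypes and from 0.974 to 0.983 between them. Read totals were not analysed here. The steps between low values put relative depth between 0.884 in KO 1 and 1.12 in WT 3, a rough estimate. All 10 hepatocyte markers were detected, and Alb ranked 1st of all genes in mean level. Their summed level was 63779.2 to 69759.5 FPKM in KO and 57204.8 to 62383.4 FPKM in WT, without overlap, and 1 of the 10, Cps1, was called higher. Most of that sum was Alb, at 43188.28 to 44897.56 FPKM in KO and 39869.34 to 41786.22 FPKM in WT. Alb was not called (log2 difference 0.09, limma adjusted p = 0.24). Of the 10 differences 9 were positive, and that of Hnf4a was negative (-0.30).

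The sequences before the start sites of the genes that differed between genotypes, and of a pair of orosomucoids, are shown because STAT, C/EBP and NF-kappa-B factors are the known regulators of this group. They come from RefSeq on GRCm38.p6, which held a window for 8 of the 10 genes (not for Orm1 and Hp), and each is the 250 bases before the start site on the gene's own strand. Apcs lies on the minus strand (chr1:172895055-172895304) and Crp on the plus strand (chr1:172697806-172698055), as do Steap4 (chr5:7960222-7960471), Orm2 (chr4:63362199-63362448) and Orm3 (chr4:63355908-63356157). Capitals mark matches to TTCNNNGAA or TTC and GAA with 4 bases between (STAT), TTGCNNAA (C/EBP) and GGG and TTCC with 3 bases between (NF-kappa-B) on either strand, and to TATAAA on the gene's strand.
Apcs: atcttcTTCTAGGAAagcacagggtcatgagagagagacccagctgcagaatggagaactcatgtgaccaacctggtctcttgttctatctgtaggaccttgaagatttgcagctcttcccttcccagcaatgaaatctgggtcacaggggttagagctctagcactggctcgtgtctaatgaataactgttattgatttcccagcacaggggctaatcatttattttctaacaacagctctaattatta
Crp: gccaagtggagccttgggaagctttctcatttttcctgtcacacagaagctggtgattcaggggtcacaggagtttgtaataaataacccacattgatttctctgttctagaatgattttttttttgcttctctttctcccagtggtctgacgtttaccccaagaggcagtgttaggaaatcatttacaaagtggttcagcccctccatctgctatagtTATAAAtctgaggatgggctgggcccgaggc
Steap4: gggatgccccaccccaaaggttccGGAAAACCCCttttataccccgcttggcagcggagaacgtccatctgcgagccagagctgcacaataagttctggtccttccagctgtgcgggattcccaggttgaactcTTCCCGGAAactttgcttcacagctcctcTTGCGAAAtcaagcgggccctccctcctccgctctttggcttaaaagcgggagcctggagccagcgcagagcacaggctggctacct
Orm2: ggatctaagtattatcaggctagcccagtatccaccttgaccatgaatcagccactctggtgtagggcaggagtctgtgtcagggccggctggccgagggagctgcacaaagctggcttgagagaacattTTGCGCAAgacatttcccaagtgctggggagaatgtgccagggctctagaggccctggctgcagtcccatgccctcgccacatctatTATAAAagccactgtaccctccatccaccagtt
Orm3: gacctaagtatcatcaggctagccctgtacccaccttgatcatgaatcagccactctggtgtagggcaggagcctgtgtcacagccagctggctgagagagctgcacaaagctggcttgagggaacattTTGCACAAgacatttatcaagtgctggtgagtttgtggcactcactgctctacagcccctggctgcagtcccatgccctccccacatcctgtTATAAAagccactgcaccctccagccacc

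Among all 32851 such windows, TTCNNNGAA was found in 7.02%, its form with 4 bases between in 5.85%, TTGCNNAA in 9.56%, the NF-kappa-B letters in 4.65% and TATAAA in 7.59%. Steap4 was the one gene of the 8 whose window held a STAT match (-116 to -108 from the start site), a C/EBP match (-87 to -80) and an NF-kappa-B match (-226 to -217). The Apcs window held a STAT match from -244 to -236 and no match to the other letters. Crp had TATAAA from -31 to -26 only. The windows of Orm2 and Orm3 were 89.0% identical over 245 aligned bases, and each held a C/EBP match in nearly the same place, TTGCGCAA from -120 to -113 in Orm2 and TTGCACAA from -121 to -114 in Orm3. TTGCGCAA reads the same on both strands, and no other matches overlapped. These are letter matches and not mapped binding sites.

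Both pentraxins were higher and Steap4 was lower in KO livers, while the other 7 did not pass the test. Of the 10 genes, 2 were called higher, against 3.98% of the 12247 genes tested, and 1 was called lower, against 4.56% (limma, adjusted p under 0.05). In either direction 3 were called, against 8.54% of all genes tested. Before adjustment, 3006 of the 12247 genes had a limma p under 0.05, and unadjusted counts given below for lists of genes stand beside that. With 10 genes these counts rest on 1 or 2 genes each. The same shares stand beside the counts of the other lists below, which were chosen with earlier results of these data known. The median log2 difference of the 10 was 0.04, and that of all genes tested was -0.02. In bulk tissue, fewer cells of a type and less RNA per cell cannot be told apart.

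**Figure D1:**
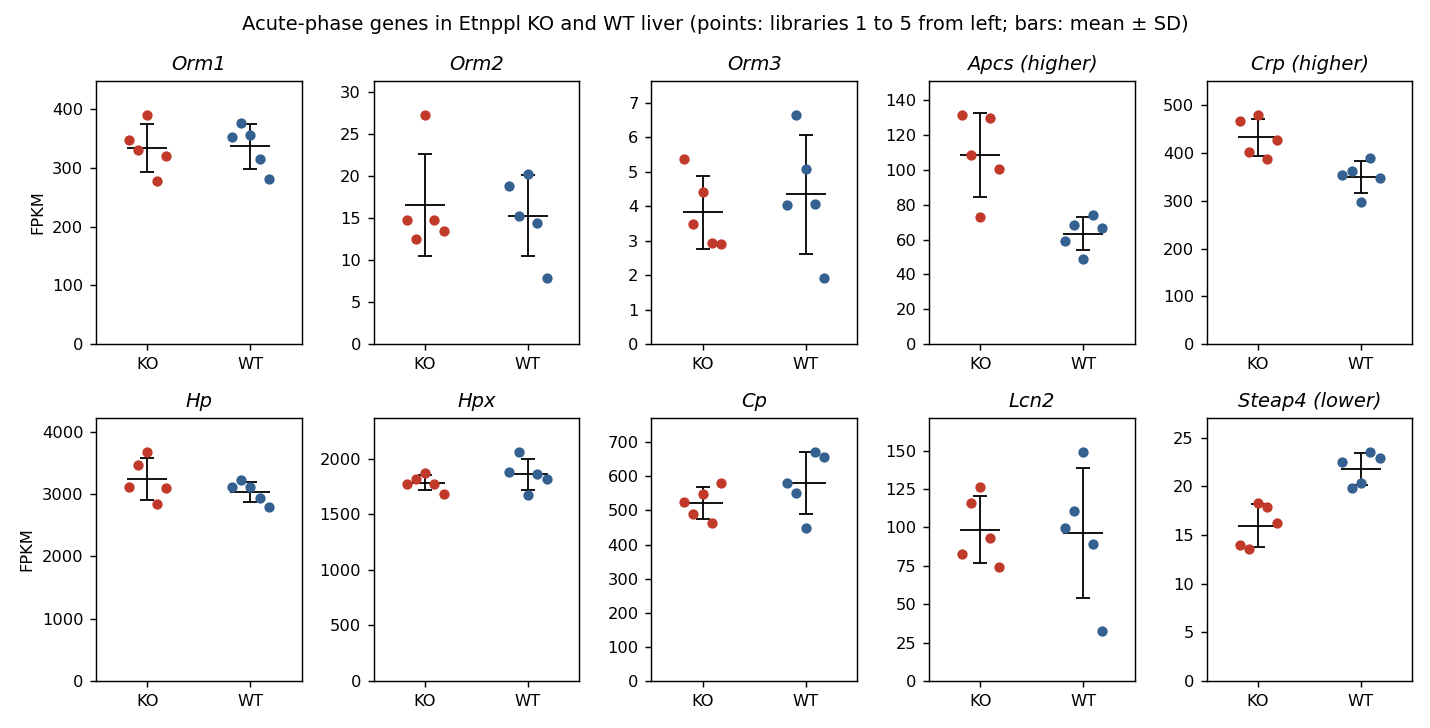
FPKM (y axis, from 0) of each acute-phase gene in the 5 KO and 5 WT libraries, with points for libraries, bars for mean and SD, and the call given in the panel title where there was one. Steap4 is the one gene whose genotypes do not overlap (13.54 to 18.35 FPKM in KO, 19.89 to 23.54 FPKM in WT), and Apcs and Crp overlap by 1 KO library each.

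Apcs encodes serum amyloid P component, a pentraxin that binds amyloid fibrils, chromatin and microbial surfaces. The gene (ENSMUSG00000026542) has 2 exons and lies on chromosome 1 from 172893961 to 172895041 in GRCm38, the assembly of mm10. It was at 131.22, 108.6, 72.98, 129.5 and 100.36 FPKM in KO 1 to KO 5, against 59.27, 68.22, 49.05, 73.9 and 66.54 FPKM in WT 1 to WT 5. In 4 of 5 KO libraries it lay above every WT library, and KO 3 fell just below WT 4. The mean was 108.5 ± 23.9 FPKM in KO and 63.4 ± 9.57 FPKM in WT (SD, n = 5 each), so that KO stood at 171% of WT. On the log2 scale Apcs was higher by 0.75 (SE 0.161, adjusted p = 0.0185 by limma), and it stayed called whichever library was left out (adjusted p up to 0.0452).

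Crp encodes C-reactive protein, which binds phosphocholine on damaged membranes and bacteria and activates complement through C1q. It lies on the same chromosome on the opposite strand (ENSMUSG00000037942, 172698055 to 172833031, 2 exons in its protein-coding transcript). Its level was 466.19, 402.73, 478.54, 388.19 and 426.47 FPKM in KO 1 to KO 5, against 354.36, 362.66, 298.17, 389.04 and 346.71 FPKM in WT 1 to WT 5. The groups met at a single point, KO 4 being 388.19 FPKM and WT 4 389.04 FPKM. Crp averaged 432.4 ± 39.18 FPKM in KO and 350.2 ± 33.17 FPKM in WT (SD, n = 5 each), higher by 0.30 on the log2 scale (SE 0.0796, adjusted p = 0.0381 by limma). This call was fragile, since it was lost without any of 8 libraries, all but KO 4 and WT 4 (adjusted p up to 0.0811). It was also lost with no filter on low values (adjusted p = 0.0713).

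KO 3 set the pentraxins apart from each other, with the highest Crp of all libraries and the lowest Apcs of the KO group. Crp is the more abundant transcript, and its annotated gene span contains a processed pseudogene, Gm38051, which was at 0.514 FPKM in KO and 0.592 FPKM in WT. The coding transcripts of Apcs and Crp share 60% of aligned bases and no 50-base window. Of 12 relatives and partners in humoral recognition, 8 were tested, 2 were called lower and none higher (median log2 difference -0.26). Mbl2, a mannose-binding lectin, averaged 125.4 ± 15.1 FPKM in KO and 209.2 ± 35.28 FPKM in WT (log2 difference -0.73). C1qa, a chain of the complement component that CRP engages, averaged 27.76 ± 3.661 FPKM in KO and 38.18 ± 3.232 FPKM in WT (-0.46). C4b (-0.23, adjusted p = 0.0786) and C1qc (-0.26, adjusted p = 0.0973) did not pass limma's test, and the long pentraxin Ptx3 was below the filter. Without KO 3 the count of lower genes was 3. C1qa is also a Kupffer cell marker. Of 12 such markers 5 were lower, and their summed level was 247 to 330.1 FPKM in KO and 334.6 to 393.5 FPKM in WT, whose part in these values was not tested.

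Steap4 encodes a membrane metalloreductase that reduces iron and copper ions and that inflammatory cytokines induce in liver and fat. The gene (ENSMUSG00000012428) has 5 exons on chromosome 5, from 7960457 to 7982213 on the plus strand. It was at 13.94, 13.54, 18.35, 17.85 and 16.24 FPKM in KO 1 to KO 5, against 22.49, 19.89, 20.31, 23.54 and 22.9 FPKM in WT 1 to WT 5. Every KO library was below every WT library, as was the case for 4.78% of the genes tested. It was the 1 gene of the 10 without overlap, against 8.87% of all genes in either direction. The mean was 15.98 ± 2.196 FPKM in KO and 21.83 ± 1.626 FPKM in WT (SD, n = 5 each), and KO minus WT was -0.44 in log2 (SE 0.092, adjusted p = 0.0148 by limma). This fall stayed called whichever library was left out (adjusted p up to 0.038).

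Of its relatives, Steap3, the ferrireductase of endosomes, averaged 9.036 ± 1.187 FPKM in KO and 11.06 ± 2.379 FPKM in WT (adjusted p = 0.241 by limma), and Steap1 was below the filter. Adipocytes also express Steap4. Of 6 adipocyte markers 4 were below the filter, Lep was at 0 in every library, and their sum did not exceed 4.6 FPKM in KO or 3.1 FPKM in WT.

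The orosomucoids, or alpha-1-acid glycoproteins, are lipocalins that carry lipophilic compounds in plasma. Orm1, Orm3 and Orm2 follow each other in that order on the plus strand of chromosome 4, starting at 63344560, 63356162 and 63362449, and each has 6 exons. Orm1 was at 348, 330.84, 389.14, 276.86 and 320.8 FPKM in KO 1 to KO 5, against 352.93, 376.37, 355.05, 315.72 and 281.17 FPKM in WT 1 to WT 5. The groups overlapped over most of their range (log2 difference -0.01, SE 0.0974, limma adjusted p = 0.945), and median-of-ratios scaling turned the sign (0.004).

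Orm2 was at 14.77, 12.57, 27.24, 14.8 and 13.53 FPKM in KO 1 to KO 5, against 18.79, 15.21, 20.22, 14.38 and 7.9 FPKM in WT 1 to WT 5. KO 3 was the highest library and WT 5 the lowest, and KO minus WT was 0.12 in log2 (SE 0.267, adjusted p = 0.829 by limma). Orm3 ranged from 2.92 to 5.38 FPKM in KO, with a median of 3.5 FPKM, and from 1.92 to 6.64 FPKM in WT, with a median of 4.08 FPKM (log2 difference -0.11, SE 0.262, adjusted p = 0.836 by limma). For neither gene was the difference larger than the spread between libraries.

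The coding transcripts of Orm1 and Orm2 are 91% identical, those of Orm2 and Orm3 88.5% and those of Orm1 and Orm3 86.5%. Of the 50-base windows of Orm1, 20.4% occur unchanged in Orm2, so that the split of reads between the copies is uncertain. The sum of the 3 does not depend on that split. It averaged 353.5 ± 46.2 FPKM in KO and 355.9 ± 43.2 FPKM in WT (SD, n = 5 each), and Orm1 made up 92.5% to 95.4% of it in KO and 93.3% to 96.6% in WT.

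Haptoglobin, encoded by Hp, binds haemoglobin set free from red cells, and hemopexin, encoded by Hpx, binds free haem. Hp was the most abundant of the 10 transcripts and ranked 34th of all genes, with 3118.11, 3468.43, 3671.24, 2837.44 and 3094.58 FPKM in KO 1 to KO 5, against 3106.2, 3215.68, 3106.13, 2937.62 and 2788.28 FPKM in WT 1 to WT 5. KO 2 and KO 3 lay above every WT library and the other 3 within the WT range (log2 difference 0.09, SE 0.0729, limma adjusted p = 0.484). Hpx was steadier, from 1687.6 to 1868.74 FPKM in KO and from 1671 to 2061.24 FPKM in WT (-0.06, SE 0.0586, adjusted p = 0.596 by limma). Its coefficient of variation was 3.72% in KO and 7.55% in WT.

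Of 12 tested genes that take up haemoglobin and haem, break haem down, or store or transport iron, 2 were higher and 2 lower (median log2 difference -0.20). Blvrb, biliverdin reductase B, averaged 58.97 ± 1.728 FPKM in KO and 82.21 ± 6.416 FPKM in WT (log2 difference -0.47). Lrp1, the receptor for hemopexin and haem, averaged 133.8 ± 4.925 FPKM in KO and 168.9 ± 22.16 FPKM in WT (-0.33). Tfrc, the transferrin receptor, averaged 8.586 ± 1.039 FPKM in KO and 5.784 ± 0.9447 FPKM in WT (0.54), and Ftl1, ferritin light chain, rose by 0.17 on the log2 scale. Blvrb and Tfrc stayed called whichever library was left out. Lrp1 lost its call without KO 2, KO 3, KO 4, KO 5, WT 1 or WT 3, and Ftl1 without any library but WT 3. Haptoglobin's macrophage receptor Cd163 averaged 5.59 FPKM in KO and 6.62 FPKM in WT and did not pass (adjusted p = 0.569 by limma). Of 5 tested red cell markers 1, Alas2, was higher, while the other 4 differences were negative (median log2 difference -0.30). The summed level of all 7 matched red cell markers, tested or not, was 338.1 to 576.3 FPKM in KO and 385.4 to 699.9 FPKM in WT. The call of Alas2 was lost with no filter and without KO 1, KO 2, KO 4, KO 5, WT 1, WT 4 or WT 5.

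Ceruloplasmin, encoded by Cp, carries copper in plasma and oxidises ferrous iron. It was at 524.72, 489.82, 549.09, 463.3 and 580.74 FPKM in KO 1 to KO 5, against 579.21, 551.74, 447.13, 671.35 and 658.23 FPKM in WT 1 to WT 5. WT 3 was the lowest of all libraries, below the whole KO range, and KO minus WT was -0.15 in log2 (SE 0.106, adjusted p = 0.432 by limma). Without WT 3 it was -0.24, again short of the threshold (adjusted p = 0.101). Cp lies on chromosome 3 like Etnppl, 110.6 Mb away, and overlaps Hps3 on the other strand, with which reads could be shared if strand was not used. Of 7 tested copper and metalloreductase genes 1 was called, the copper importer Slc31a1, which averaged 34.91 ± 2.106 FPKM in KO and 43.57 ± 1.949 FPKM in WT (log2 difference -0.32, limma adjusted p = 0.00672). The copper chaperones Ccs (-0.16) and Atox1 (0.18) did not pass.

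Lipocalin 2, encoded by Lcn2, binds bacterial siderophores and is induced by interleukin 1 and interleukin 6. It was at 82.96, 116.15, 126.41, 93.28 and 74.4 FPKM in KO 1 to KO 5, against 99.71, 110.83, 149.11, 89.31 and 32.26 FPKM in WT 1 to WT 5. The WT group enclosed the KO group on both sides, with a coefficient of variation of 22.3% in KO and 44% in WT (log2 difference 0.16, SE 0.352, limma adjusted p = 0.822). Neutrophils also store this protein. Of 13 neutrophil markers 9 were below the filter and none of the other 4 was called by limma (0 also at an unadjusted p under 0.05). The summed level of all 13 was 4.9 to 9.7 FPKM in KO and 5.6 to 12.2 FPKM in WT, and the part of neutrophils in the Lcn2 values was not tested.

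In order of level over all libraries the genes ran Hp, Hpx, Cp, Crp, Orm1, Lcn2, Apcs, Steap4, Orm2 and Orm3. Neighbours whose ranges overlapped in both genotypes were Crp and Orm1, Lcn2 and Apcs, and Steap4 and Orm2. Cp and Crp overlapped in KO but not in WT, where Cp was higher in every library. In KO livers Apcs passed Lcn2 in the mean, 108.5 FPKM against 98.64 FPKM, while in WT livers the means were 63.4 FPKM for Apcs and 96.24 FPKM for Lcn2.

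Other acute-phase transcripts were lower in KO or did not pass the test. Of 22 tested genes listed as positive acute-phase genes, 9 were lower in KO, none was higher and 13 did not pass, with a median log2 difference of -0.28. Over all genes tested, 4.56% were called lower and 3.98% higher. The list was chosen with earlier results of these data known, so its count is a description. Lrg1, leucine-rich alpha-2-glycoprotein, averaged 434.3 ± 29.16 FPKM in KO and 746.6 ± 53.63 FPKM in WT (-0.78). Saa4 averaged 37.96 ± 5.442 FPKM in KO and 81.17 ± 5.881 FPKM in WT (-1.09), and is known as the constitutive serum amyloid A, not an induced one. Itih4 (-0.55) and the fibrinogen chain Fga (-0.37) fell too. These 4 calls held whichever library was left out. The remaining 5, named after their values were seen, were Saa3 (-1.13), C3 (-0.42), Lbp (-0.35), Fgg (-0.29) and Cfb (-0.27), of which Lbp, Fgg and Cfb each lost the call without several single libraries (KO 2, KO 4, KO 5, WT 1 and WT 5 for all 3). The serum amyloid A genes are close copies, and reads may be split among them. The count of lower genes ranged from 6 to 11 when 1 library was left out. The count of 0 higher became 1, Agt, without KO 1, with median-of-ratios scaling and with a filter at 5 FPKM.

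**Figure D2:**
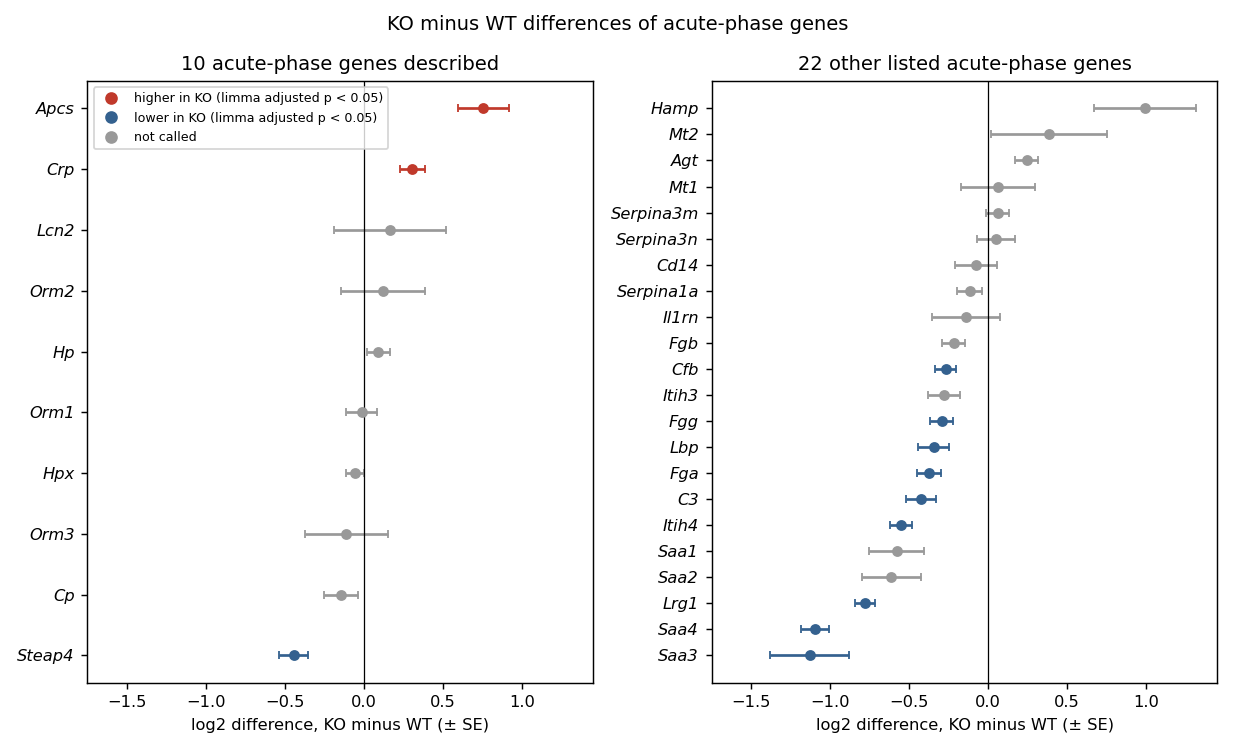
Log2 difference, KO minus WT, with its SE (x axis) for the 10 genes and for 22 other listed acute-phase genes (rows), coloured by the limma call. Apcs (0.75) and Crp (0.30) are the only called rises in either panel, and Steap4 (-0.44) lies on the same side as the 9 called falls on the right.

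Plasma proteins that fall in the acute phase were tested as the other side of the same response. Of 12, 4 were higher and 1 lower in KO, with a median log2 difference of 0.12, where 3.98% of all genes tested were higher and 4.56% lower. Serpina7, thyroxine-binding globulin, averaged 26.63 ± 9.105 FPKM in KO and 10.33 ± 5.083 FPKM in WT (1.43). Ahsg, fetuin A, rose by 0.38 on the log2 scale, the apolipoprotein Apoa2 by 0.26 and the retinol carrier Rbp4 by 0.18, while transferrin, Trf, fell by 0.24. The count of 4 became 1 with no filter on low values, 0 without KO 4, and 1 without KO 3, KO 5, WT 1 or WT 5. It became 2 without KO 1 or KO 2, and 3 without WT 2, WT 3 or WT 4. It was also 3 with upper-quartile scaling and without robust moderation. Trf lost its call without KO 2, KO 3, KO 5, WT 1, WT 4 or WT 5.

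The signals that induce the acute phase were low or did not pass the test, apart from 1 receptor. Of 9 inducing cytokines 6 were below the filter, Il22 was at 0 in every library, and Il6 averaged 0.032 FPKM in KO and 0.074 FPKM in WT. Il1b averaged 2.214 ± 1.088 FPKM in KO and 3.974 ± 3.084 FPKM in WT (limma adjusted p = 0.74). Il1a (log2 difference 0.44) and Clcf1 (-0.04) did not pass limma's test, and no cytokine had an unadjusted p under 0.05.

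Of 10 receptors for these cytokines 1 was lower and none higher (median log2 difference -0.23), while 1, Tnfrsf1a, was called higher without WT 3. An unadjusted limma p under 0.05 was found for 6 of the 10, and 9 differences were negative. Lifr, the receptor subunit that pairs with gp130 for leukaemia inhibitory factor, averaged 18.66 ± 2.332 FPKM in KO and 30.82 ± 6.502 FPKM in WT (-0.69, limma adjusted p = 0.0135). Il1r1 (-0.42), Osmr (-0.27) and Il10rb (-0.18) did not pass. None of 14 signal transducers and transcription factors was called by limma, with 1 at an unadjusted p under 0.05 and a median of -0.04. Among them were Hnf4a (-0.30), Foxa2 (-0.25), Cebpa (-0.14) and Tyk2 (-0.13).

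None of 10 feedback targets of STAT3 and NF-kappa-B was called by limma, with 4 at an unadjusted p under 0.05 and a median of -0.18. Of all 12247 genes tested, 3006 had an unadjusted limma p under 0.05. Nfkbiz, an inducible partner of NF-kappa-B, averaged 2.1 ± 0.2487 FPKM in KO and 3.302 ± 0.8784 FPKM in WT (-0.52, limma adjusted p = 0.0538). Socs3, the STAT3-induced inhibitor of gp130 signalling, averaged 1.862 ± 0.3616 FPKM in KO and 2.714 ± 0.5594 FPKM in WT (-0.44, limma adjusted p = 0.078). Bcl3 (-0.47) and Junb (-0.53) did not pass, and Nfkbiz was called lower without WT 4. None of 9 glucocorticoid receptor targets was called by limma either, with 3 at an unadjusted p under 0.05 and a median of -0.01. Dusp1 (-0.55), Zbtb16 (-1.02), Fkbp5 (-0.75) and Pck1 (0.25) had the smallest p of that list, and a call appeared for Zbtb16 without KO 5 and for Dusp1 without WT 2.

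Markers of other liver cells were examined beside these values. None of 10 endothelial markers was called (summed level 197 to 226 FPKM in KO and 216.6 to 228.6 FPKM in WT). Of 9 stellate cell markers 1, Reln, was lower (117.8 to 139 FPKM in KO and 126.6 to 167.2 FPKM in WT), a call lost without any library but WT 3, with no filter on low values and with median-of-ratios scaling. Of 4 tested cholangiocyte markers 1, Sox9, was lower, a call lost without any library but KO 1 and WT 5 and with no filter. All 7 cholangiocyte markers, tested or not, summed to 13.1 to 18.3 FPKM in KO and 14.9 to 20.1 FPKM in WT. None of 7 tested lymphocyte markers was called, and 1 was called lower without KO 3. All 10 lymphocyte markers, tested or not, summed to 20.3 to 32.8 FPKM in KO and 28.7 to 54.2 FPKM in WT. The count of 5 lower Kupffer cell markers became 3 without KO 2, KO 5, WT 1, WT 2 or WT 3, and with no filter. The part of any of these cells in the acute-phase values was not tested.

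Individual libraries carried much of the spread. KO 3 had the highest KO level of 7 of the 10 genes (Orm1, Orm2, Hp, Hpx, Crp, Lcn2 and Steap4) and the lowest KO level of Apcs. WT 5 had the lowest WT level of Orm1, Orm2, Orm3, Hp and Lcn2, with Lcn2 1.41 below the WT mean on the log2(FPKM + 0.5) scale (-1.41).

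**Figure D3:**
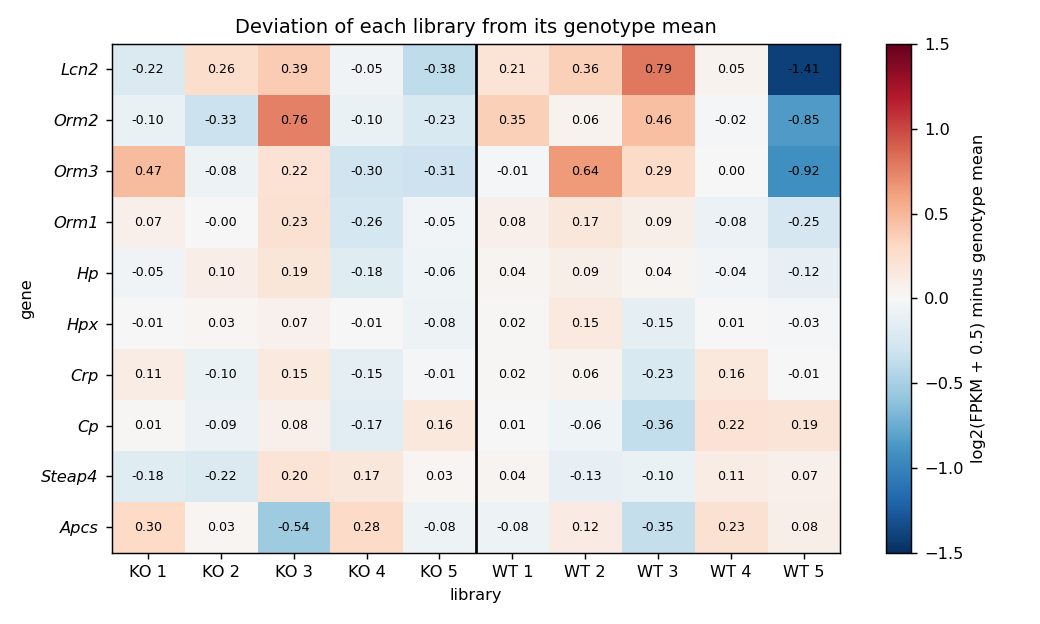
Deviation of each library (columns) from the mean of its genotype on the log2(FPKM + 0.5) scale, for each gene (rows), red above the mean and blue below. Lcn2, Orm2 and Orm3 are low together in WT 5 (-1.41, -0.85 and -0.92), and Apcs is low in KO 3 (-0.54) where Orm2 is high (0.76).

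After the genotype means were subtracted, 29 of the 45 pairs of genes had a positive Pearson correlation over the 10 libraries. None passed at an adjusted p under 0.05 (permutation within genotypes, two-sided, Benjamini-Hochberg over 45 pairs), and 7 had an unadjusted p under 0.05. The closest pair was Orm1 and Hp (r = 0.88, permutation p = 0.0014, adjusted p = 0.063, and Spearman's rho = 0.82, permutation p = 0.0036, adjusted p = 0.16). Without KO 4 and WT 5, the libraries farthest from the median of Orm1, r was 0.75. Orm2 and Lcn2 had r = 0.82 (permutation p = 0.012, adjusted p = 0.14, rho = 0.78), and r = 0.68 without the 2 farthest libraries. Apcs and Crp, though both higher in KO, had r = 0.09 over the 10 libraries. That value joined r = 0.94 within the 5 WT libraries and r = -0.51 within the 5 KO libraries, which were not tested apart.

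**Figure D4:**
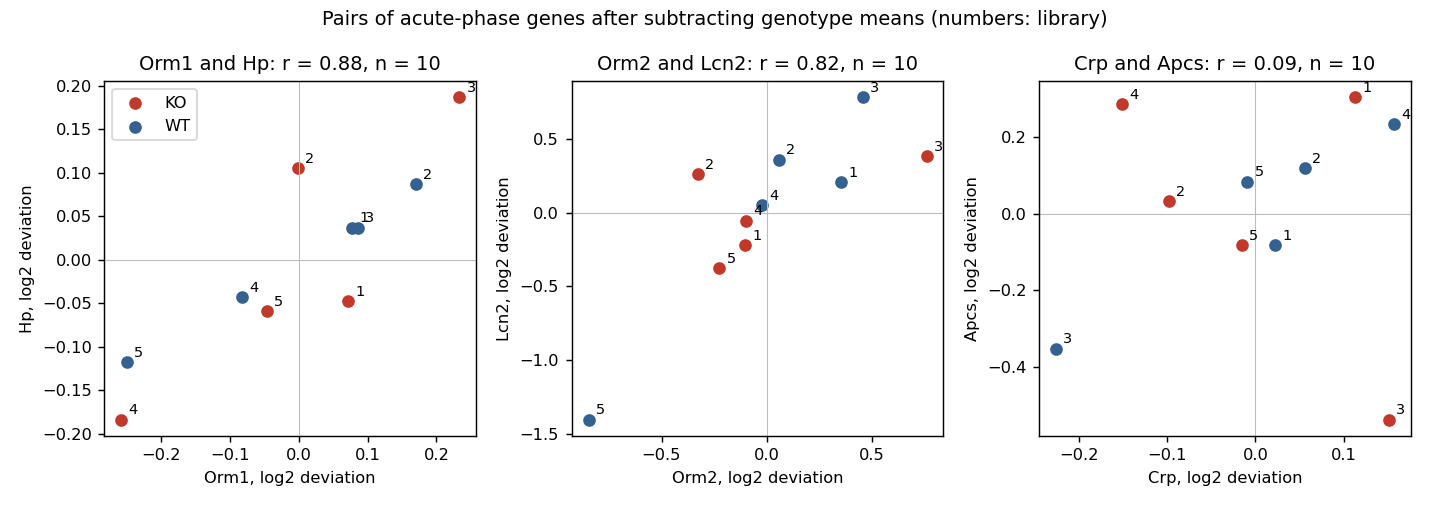
Deviations from the genotype mean on the log2(FPKM + 0.5) scale for Orm1 (x axis) and Hp, Orm2 and Lcn2, and Crp and Apcs, with 1 point per library, red for KO and blue for WT, numbered by library. Orm1 and Hp lie along a line (r = 0.88), and WT 5 stands at the low end for Orm2 and Lcn2 (r = 0.82). Crp and Apcs have r = 0.09 over both genotypes, 0.94 within WT and -0.51 within KO.

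Of 7044 genes averaging 5 FPKM or more, the one whose deviations over the 10 libraries were most like those of Apcs was Atrn (r = 0.941). For Crp it was Rbpms (r = 0.961), for Steap4 Erlin1 (r = 0.948), for Cp Tmem33 (r = 0.973) and for Lcn2 Bhmt (r = 0.961). For Orm2 it was Slc50a1 (r = 0.947), for Orm3 Gphn (r = 0.916) and for Hpx Tbc1d17 (r = 0.934). Il17rb came first for Hp (r = 0.929) and second for Orm1 (r = 0.942), after Hist2h2aa2 (r = 0.951), and Orm1 itself was among the 3 closest to Hp (r = 0.88). These are descriptions, picked as the highest of many over 10 libraries that share their depth.

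The 3 calls differed in how firmly they held. Apcs and Steap4 stayed called in all 20 settings, and Crp in 10 of them.

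**Figure D5:**
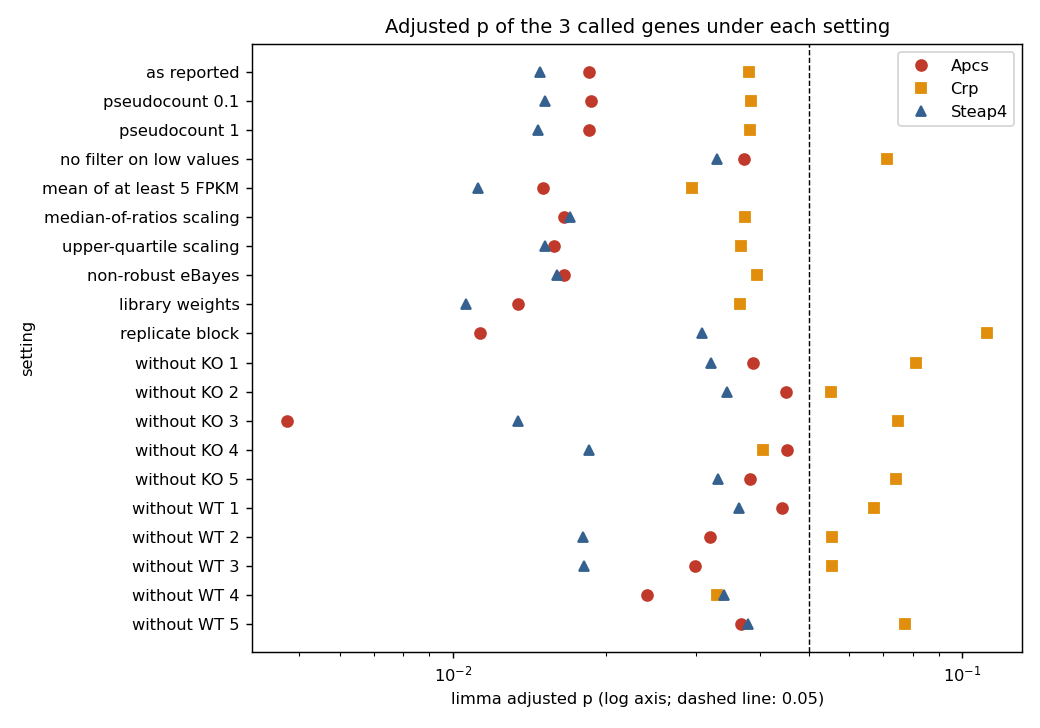
Limma adjusted p (x axis, log scale) of Apcs, Crp and Steap4 as reported and under 19 alternatives (rows), with the 0.05 threshold dashed. Crp crosses the threshold under 10 alternatives, and Apcs and Steap4 under none.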

How the data were processed

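Poly-A RNA of Etnppl KO and Etnppl WT livers was sequenced as paired ends, in 5 libraries per genotype, per the labels. The deposited values are FPKM per gene, made by the authors. The submitters' processing notes name the build mm10 and STAR, RSEM, R 4.0.2, DESeq and DESeq2 without their roles. The library kit keeps strand, per the labels' protocols, but the counting setting is not given in the sources used here. Counts and total depth were not used here, so no counting intervals are given.

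Values were analysed as log2(FPKM + 0.5), which understates changes of low genes. The 12247 genes averaging 0.5 FPKM or more were fitted with limma 3.58.1 in R 4.3.3 (moderated by trend, robust), KO minus WT, with Benjamini-Hochberg adjustment over all of them and a call at an adjusted p under 0.05. The fit was tested on simulated data with 200 genes changed per run. With noise drawn independently for each gene, it recovered 59.7% of changes of 0.5 in log2 and 90.1% of changes of 1. Of its calls there, 5.2% were false. The real data had 1046 calls and may hold variation shared between genes, so these rates may not carry over to them. Smaller changes were not simulated, so a gene that did not pass may still differ. Etnppl was also tested by exact permutation, and pairs of genes by 100000 permutations within genotypes. Positions are from GENCODE on GRCm38. Named genes were all 10 acute-phase genes, Etnppl, the 4 genes of smallest p in each list, and every called gene where a list had 6 or fewer. The genes and lists were chosen with earlier results of these data known. Alternatives changed the pseudocount, filter, scaling, moderation and library weights, added the replicate number as a block, or left out 1 library.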

Additional observations from a re-analysis of the deposited data

Results flagged for a closer look

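Among 116 groups of 5 libraries of the named genes, 5 held a library far from the other 4, where chance at 1 in 20 gives 5.8. Among the 20 groups of the 10 acute-phase genes there was 1, where chance gives 1. That was Orm2 in KO 3, at 27.24 FPKM, with the other KO libraries between 12.57 and 14.8 FPKM. Serpina7 in KO 4 was at 42.39 FPKM, with the other KO libraries between 20.12 and 26.07 FPKM. C3 in WT 3 was at 1773.76 FPKM, with the other WT libraries between 2361.62 and 2561.85 FPKM. Of the neighbours of the pentraxin genes, Tagln2 in KO 4 was at 16.09 FPKM (other KO libraries 10.02 to 11.2 FPKM), and Dusp23 in KO 5 was at 20.61 FPKM (22.58 to 23.05 FPKM).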

How the results depend on the processing

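Of 189 alternative values of the 10 acute-phase genes, 170 kept their sign and their side of the threshold, 10 lost a call (all of Crp) and 9 changed sign (all of uncalled genes). The count of 2 genes called higher became 1 with no filter on low values and with the replicate block, and 1 to 2 when 1 library was left out, while 1 gene stayed called lower in every setting. Over all genes, 488 higher and 558 lower became 294 and 370 with no filter, 258 to 454 and 316 to 541 when 1 library was left out, and 230 and 321 with the replicate block. Same-numbered libraries correlated between -0.207 and 0.208 after genotype means were subtracted. The one pair whose libraries each correlated best with the other was number 5, and KO 1 also correlated best with WT 1. This check cannot settle whether replicate numbers pair the libraries. Under the block the adjusted p of Crp was 0.112 (limma), Trf lost its call and the plasma proteins that fall had 2 higher, not 4. Reln, Sox9 and Alas2 lost theirs too, and Hamp was called higher and Hnf4a lower. The number of gene pairs correlated at an adjusted p under 0.05, 0 as reported, was 1 at a pseudocount of 1 and 0 to 2 when 1 library was left out (2 without KO 1, 1 without KO 2).

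Signs of uncalled genes turned as follows. Orm1 was at 0.004 under median-of-ratios scaling. When 1 library was left out, Orm1 ranged from -0.077 to 0.05, Orm2 from -0.092 to 0.234, Orm3 from -0.342 to 0.048, Lcn2 from -0.187 to 0.361 and Clcf1 from -0.113 to 0.11. Clcf1 was at 0.016 with library weights. The cause was not tested. Depth is unknown, so counting error cannot be separated from the spread between libraries for low genes such as Orm3.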

Other observations

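Genes near the pentraxins were examined after their values were seen. Of 22 genes in the table within 250 kb of Crp or Apcs, 3 besides the pentraxins passed the filter and 1 was called. Dusp23, a small phosphatase, averaged 22.3 FPKM in KO and 16.3 FPKM in WT (log2 difference 0.45, limma adjusted p = 0.00259). Tagln2, an actin-binding protein, averaged 11.7 FPKM in KO and 8.89 FPKM in WT (0.36, limma adjusted p = 0.104). Near the orosomucoids 5 of 15 genes were tested and none was called by limma, and near Steap4 1 of 10, Sri, which was not called.

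The ratio of Apcs to Crp, also examined after the values were seen, averaged -2.02 ± 0.427 in KO and -2.47 ± 0.108 in WT on the log2 scale (SD, n = 5 each), and the difference of 0.45 had an exact two-sided permutation p = 0.063. Leaving out any other single library gave 0.34 to 0.48 with exact p from 0.063 to 0.13. Leaving out KO 3, the library that lay against the difference, gave 0.63 with exact p = 0.0079, the lowest possible for that split. Since KO 3 was the library against the difference, this p adds no support to it.

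Hamp, which encodes the iron hormone hepcidin, averaged 7227.7 ± 2742 FPKM in KO and 3670.4 ± 1464 FPKM in WT, a log2 difference of 0.99 that did not pass limma's test (adjusted p = 0.0866).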
